A study of Mus musculus with 6 samples.

Results

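The genes described here are the G1 cyclins Ccnd1, Ccnd2, Ccnd3, Ccne1 and Ccne2, the CDK inhibitors Cdkn1b, Cdkn2a and Cdkn2b, and the Myc genes Myc and Mycn. They were chosen by name as the rows of the RNA-Seq table that carry these 10 symbols, and all 10 were found, each in a single row, among 21639 rows. The table holds 6 libraries of mouse embryonic stem cells (ESCs), at day 0 (D0) and as embryoid bodies (EBs) at day 3 (D3), from 3 lines with 1 library for each line and day. Embryoid bodies are aggregates in which ESCs begin to differentiate.

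The labels give all 6 libraries the V6.5 strain (129SvJaexC57BL/6) and name the genotypes H2AZ WT, H2AZ KD and H2AZ-AP3 variant, the last called H2AZ-AP3 here. H2A.Z is a variant of the histone H2A. The labels' protocol describes lentiviral transgenes of wild-type H2AZ or of the AP3 mutant, in which 3 residues of the acidic patch were replaced by those of H2A, each fused to YFP and driven by a doxycycline-inducible CMV promoter in KH2 ESCs sorted for YFP. Hairpins against the endogenous transcript were then introduced into these transgenic lines. The labels do not state for each library which hairpin or transgene it carried, so whether H2AZ WT was an unmodified line or one with a hairpin and a transgene cannot be told from them. Whether a line was 1 clone is not given in the sources used here. ESCs were grown on irradiated mouse embryonic fibroblasts, which were left out at the final passage.

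With 1 library per condition there was no replicate spread within a line and day, and a difference between lines at 1 day, or between days in 1 line, has no test. Such a difference is described by its size, and it could come from these cultures as well as from the line or the day. A change was counted when it passed 1.5-fold on the log2(RPKM + 0.001) scale (0.58 in log2). RPKM is a read count divided by transcript length and library size. The counting error of a log2 change (SE) was estimated from the reads behind each level. It covers the sampling of reads only. In these bulk samples, fewer cells of a type and less RNA per cell cannot be told apart.

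H2afz, the gene behind H2A.Z that the hairpins target, stood at 279 RPKM in H2AZ WT, 343 RPKM in the library labelled H2AZ KD and 304 RPKM in H2AZ-AP3 at D0. At D3 it stood at 258, 236 and 394 RPKM in the same order. H2afz was thus higher, not lower, at D0 in the library labelled H2AZ KD than in H2AZ WT, and reads from a transgene and from the endogenous gene were not separated in the table. The estimated depth was 16.5 M to 30.8 M reads, and the value of 30.8 M, for H2AZ-AP3 at D0, is uncertain because an earlier estimator gave 13.2 M for it. The pluripotency factor Pou5f1 was at 358 to 540 RPKM in all 6 libraries, and early differentiation markers, summed over 10 genes, reached 47.8 to 59.9 RPKM in the ESC libraries and 137 to 183 RPKM in the EB libraries, much of it Dnmt3b (30.7 to 36.9 RPKM and 71.2 to 105 RPKM). Counted by gene, 9 of the 10 were higher at D3 past 1.5-fold in H2AZ WT (median log2 change 2.12), 8 in the line labelled H2AZ KD (1.98) and 5 in H2AZ-AP3 (0.53). Of rows with at least 1 RPKM, 23.0%, 22.3% and 24.3% passed 1.5-fold in either direction in the same order. Mixl1, counted in H2AZ WT, was at 0.145 RPKM at D0 and 0.651 RPKM at D3. From H2AZ WT to H2AZ-AP3 at D0, 5 of these 10 markers were higher past 1.5-fold (T, Gata4, Gata6, Sox17 and Foxa2) and 2 lower (Fgf5 and Otx2). Gata4 was at 12.1 RPKM against 3.24 RPKM in H2AZ WT and Otx2 at 1.37 against 4.22 RPKM. T (0.491 against 0.264 RPKM) and Fgf5 (0.106 against 0.539 RPKM) were low, where 1.5-fold is easily passed. Of rows with at least 1 RPKM in either library, 13.9% passed 1.5-fold between H2AZ-AP3 and H2AZ WT at D0. Of 7 pluripotency genes, 2 were lower (Sox2 and Klf4, the latter at 65.9 against 121 RPKM) and 0 higher, with Pou5f1 at 540 against 421 RPKM. Fibroblast markers, again 10 genes, summed to 37.2 to 70.9 RPKM in the ESC libraries and 10.0 to 16.7 RPKM in the EB libraries.

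D cyclins bind Cdk4 and Cdk6, and E cyclins bind Cdk2. These kinases phosphorylate the RB proteins, which releases E2F factors and lets a cell pass from G1 into S phase. Cdkn1b encodes p27, which inhibits cyclin E and Cdk2, while Cdkn2b (p15) and the p16 product of Cdkn2a inhibit Cdk4 and Cdk6. The other product of Cdkn2a, p19ARF, acts on p53 through Mdm2. Myc and Mycn encode related transcription factors that promote growth and division. ESCs cycle fast, with a short G1 phase, and lengthen it as they differentiate.

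Of the 10 genes, 6 had an entry in RefSeq's promoter table (GRCm38.p6), with 8 windows of 300 bases from 250 bases before to 50 after the start. These were Ccnd3, Ccne1, Cdkn1b, Cdkn2a, Cdkn2b and Mycn. The windows were searched on both strands for 7 motifs. CACGTG (an E-box), TTCCCGCC (an E2F form), TTCNNNGAA (a STAT form) and CTTTGAT (a TCF/LEF form) had no match in the 8 windows, against 7.15%, 2.19%, 8.30% and 3.73% of all 32851 windows. CCGCCC, the core of a GC box, was in all 8 windows, against 35.7% of all windows. The E2F forms TTTCGCGC and TTTGGCGC were found in Mycn and in no other of these windows, against 0.323% and 0.514% of all windows. The motifs were chosen after the levels had been seen, and a match is a description of letters, not a site. The stretches below are shown because, of the 6 genes with windows, Mycn and Ccne1 were those lower at D3 past 1.5-fold in H2AZ WT and in the line labelled H2AZ KD and not in H2AZ-AP3, and are written in the direction of the gene. In the first, chr12:12941994-12942023 on the minus strand (GRCm38.p6), positions -187 to -158 from the start, capitals mark TTTGGCGC at 2 places and TTTCGCGC on the opposite strand, which overlaps the first of them. In the second, chr7:38107528-38107557 on the minus strand (GRCm38.p6), positions -67 to -38, capitals mark the reverse complement of CCGCCC.
Mycn: ggctTTTGGCGCGAAAggcTTTGGCGCctc
Ccne1: cctcgGGGCGGggcgcgaGGGCGGgacggg

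**Figure D1:**
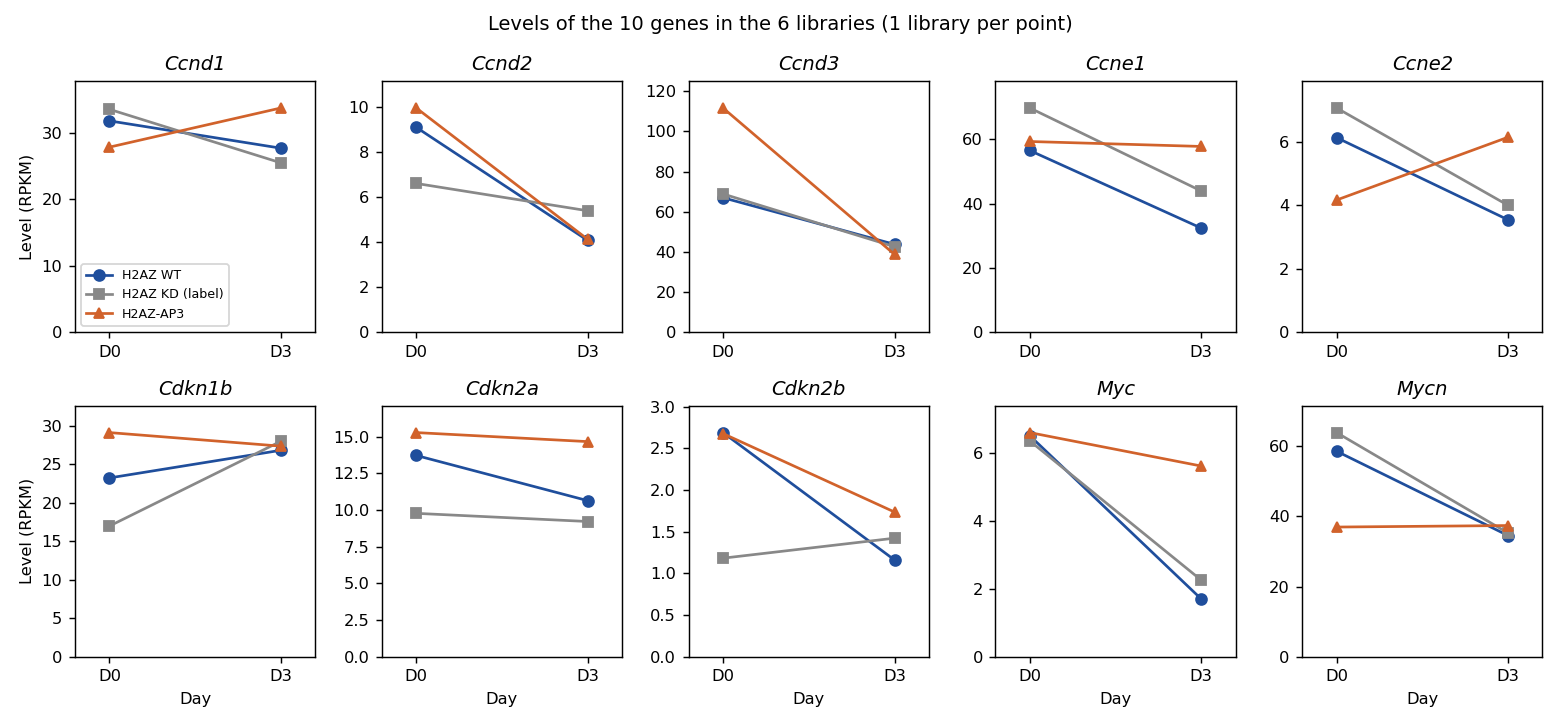
Level in RPKM (y axis, from 0) of each of the 10 genes at D0 and D3 (x axis), with 1 point per library and a line joining the 2 days of each line. Myc stayed at 5.61 RPKM in H2AZ-AP3 at D3 while the other lines were at 1.70 and 2.25 RPKM, and Ccnd3 reached 112 RPKM in H2AZ-AP3 at D0.

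Myc was the gene with the widest range of levels, 3.89-fold from its lowest to its highest library. At D0 the 3 lines were nearly level, at 6.50 RPKM in H2AZ WT, 6.35 RPKM in the library labelled H2AZ KD and 6.59 RPKM in H2AZ-AP3. At D3 it was at 1.70 RPKM in H2AZ WT, 2.25 RPKM in the library labelled H2AZ KD and 5.61 RPKM in H2AZ-AP3. The 3 ESC libraries and the H2AZ-AP3 EBs were thus high and the other EB libraries low. The log2 change from D0 to D3 was -1.94 (counting SE 0.20) in H2AZ WT, -1.50 (SE 0.16) in the library labelled H2AZ KD and -0.23 (SE 0.12) in H2AZ-AP3. Between the lines at D3, Myc was 3.30-fold higher in H2AZ-AP3 than in H2AZ WT (log2 1.72, SE 0.20), a rise that 56 of 11981 rows with at least 1 RPKM in either library matched or passed, Myc itself included. The gene is on chromosome 15 at chr15:61816896-61821916 (mm9, plus strand), with 3 exons in its longest coding transcript.

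Mycn was far more abundant than Myc per length of transcript in every library, from 5.61 times Myc in H2AZ-AP3 at D0 to 20.4 times in H2AZ WT at D3. Its level at D0 was 58.5 RPKM in H2AZ WT, 63.9 RPKM in the library labelled H2AZ KD and 36.9 RPKM in H2AZ-AP3. At D3 it was 34.5, 35.2 and 37.4 RPKM in the same order. Only the first 2 ESC libraries were high, and H2AZ-AP3 held the EB level at both days. The log2 change from D0 to D3 was -0.76 (SE 0.04) in H2AZ WT, -0.86 (SE 0.04) in the library labelled H2AZ KD and 0.02 (SE 0.04) in H2AZ-AP3. At D0 Mycn was lower in H2AZ-AP3 than in H2AZ WT by 1.58-fold (log2 -0.66, SE 0.04). Its E2F-type letters were given above. The sum of Myc and Mycn was 65.0, 70.2 and 43.5 RPKM at D0 and 36.2, 37.5 and 43.0 RPKM at D3 in H2AZ WT, the library labelled H2AZ KD and H2AZ-AP3. The gene is on chromosome 12 at chr12:12942899-12948642 (mm9, minus strand).

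Ccne1, which encodes cyclin E1, stood at 56.5 RPKM in H2AZ WT, 69.8 RPKM in the library labelled H2AZ KD and 59.3 RPKM in H2AZ-AP3 at D0. At D3 the levels were 32.4, 43.9 and 57.8 RPKM. The H2AZ-AP3 EBs were as high as the ESCs, and the other EB libraries were lower. The log2 change with the day was -0.80 (SE 0.09) in H2AZ WT, -0.67 (SE 0.07) in the library labelled H2AZ KD and -0.04 (SE 0.07) in H2AZ-AP3. At D3 Ccne1 was 1.79-fold higher in H2AZ-AP3 than in H2AZ WT (log2 0.84, SE 0.09). The gene is at chr7:38883003-38892509 (mm9, minus strand).

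Ccne2, which encodes cyclin E2, was 9.14 to 14.2 times less abundant than Ccne1 per length of transcript. It stood at 6.14 RPKM in H2AZ WT, 7.08 RPKM in the library labelled H2AZ KD and 4.17 RPKM in H2AZ-AP3 at D0. The EB levels were 3.54, 4.001 and 6.15 RPKM. The H2AZ-AP3 line was the lowest of the ESC libraries and the highest of the EB libraries. The log2 change with the day was -0.79 (SE 0.30) in H2AZ WT, -0.82 (SE 0.26) in the library labelled H2AZ KD and 0.56 (SE 0.25) in H2AZ-AP3, the last short of 1.5-fold. At D3 Ccne2 was 1.74-fold higher in H2AZ-AP3 than in H2AZ WT (log2 0.80, SE 0.29). At D0 it was lower by a log2 change of -0.56 (SE 0.26), which did not pass 1.5-fold. The SE of Ccne2 rests on a median annotated transcript of 535 bases, where the longest is 3006 bases and gives an SE of 0.12 for the D3 difference. The row of Ccne2 shares its locus in the table, chr4:11118501-11181406 (mm9), with Ints8. The counting was not stated to use strand, so reads where such neighbours overlap cannot be told apart.

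Ccnd3, which encodes cyclin D3, was the most abundant D cyclin, with 50.5% to 74.7% of the summed D cyclin RPKM. It stood at 67.0 RPKM in H2AZ WT, 68.9 RPKM in the library labelled H2AZ KD and 112 RPKM in H2AZ-AP3 at D0. At D3 the levels were 43.8, 42.6 and 38.7 RPKM. All EB libraries were below all ESC libraries, and 1 ESC library, H2AZ-AP3, stood above the rest. The log2 change with the day was -0.61 (SE 0.05) in H2AZ WT, -0.69 (SE 0.04) in the library labelled H2AZ KD and -1.53 (SE 0.04) in H2AZ-AP3. At D0 Ccnd3 was 1.67-fold higher in H2AZ-AP3 than in H2AZ WT (log2 0.74, SE 0.03). Its row shares the locus chr17:47642000-47748441 (mm9) with Bysl.

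Ccnd2, which encodes cyclin D2, stood at 9.11 RPKM in H2AZ WT, 6.61 RPKM in the library labelled H2AZ KD and 9.97 RPKM in H2AZ-AP3 at D0. At D3 it stood at 4.07, 5.40 and 4.12 RPKM. All EB libraries were below all ESC libraries, and the library labelled H2AZ KD had the narrowest gap. The log2 change with the day was -1.16 (SE 0.08) in H2AZ WT, -0.29 (SE 0.08) in the library labelled H2AZ KD and -1.27 (SE 0.07) in H2AZ-AP3. Ccnd1, which encodes cyclin D1, had the narrowest range of the 10 genes, 25.5 to 33.8 RPKM (1.32-fold), and passed 1.5-fold in 0 of the 7 comparisons. Its levels were 31.8, 33.6 and 27.9 RPKM at D0 and 27.7, 25.5 and 33.8 RPKM at D3 in H2AZ WT, the library labelled H2AZ KD and H2AZ-AP3.

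Between H2AZ-AP3 and H2AZ WT, 0 of the 3 CDK inhibitors passed 1.5-fold at either day, against 13.9% (D0) and 10.2% (D3) of rows with at least 1 RPKM, so that 0 of 3 is no more than the background gives, with Cdkn2b just short of it at D3 (1.49-fold). Cdkn1b stood at 23.3 RPKM in H2AZ WT, 17.0 RPKM in the library labelled H2AZ KD and 29.1 RPKM in H2AZ-AP3 at D0. The EB levels were 26.9, 28.0 and 27.4 RPKM. The EB libraries were close together and the ESC libraries spread around them. Its log2 change with the day was 0.21 (SE 0.05) in H2AZ WT, 0.72 (SE 0.05) in the library labelled H2AZ KD and -0.09 (SE 0.04) in H2AZ-AP3. The ratio of Ccne1 to Cdkn1b in RPKM was 2.43, 4.11 and 2.04 at D0 and 1.21, 1.57 and 2.11 at D3, so that it was highest in the library labelled H2AZ KD at D0 and in H2AZ-AP3 at D3.

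Cdkn2a was measured as 1 row for the transcripts of p16 and p19ARF together. In H2AZ WT, the library labelled H2AZ KD and H2AZ-AP3 it stood at 13.7, 9.78 and 15.3 RPKM at D0. The EB levels were 10.6, 9.22 and 14.7 RPKM in the same order. The H2AZ-AP3 libraries were the highest and the libraries labelled H2AZ KD the lowest at both days, and 0 of the 7 comparisons passed 1.5-fold. Cdkn2b, the neighbour of Cdkn2a on chromosome 4, was the least abundant of the 10 genes. Its ESC levels were 2.69, 1.18 and 2.68 RPKM in that order. Its EB levels were 1.16, 1.42 and 1.74 RPKM. The ESC libraries of H2AZ WT and H2AZ-AP3 were high and the other libraries low. Cdkn2b was lower in the library labelled H2AZ KD than in H2AZ WT at D0 by 2.27-fold (log2 -1.18, SE 0.32), and its log2 change with the day was -1.21 (SE 0.31) in H2AZ WT, 0.27 (SE 0.33) in the library labelled H2AZ KD and -0.62 (SE 0.24) in H2AZ-AP3. The lowest level of Cdkn2b rests on an estimated 30.7 reads.

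**Figure D2:**
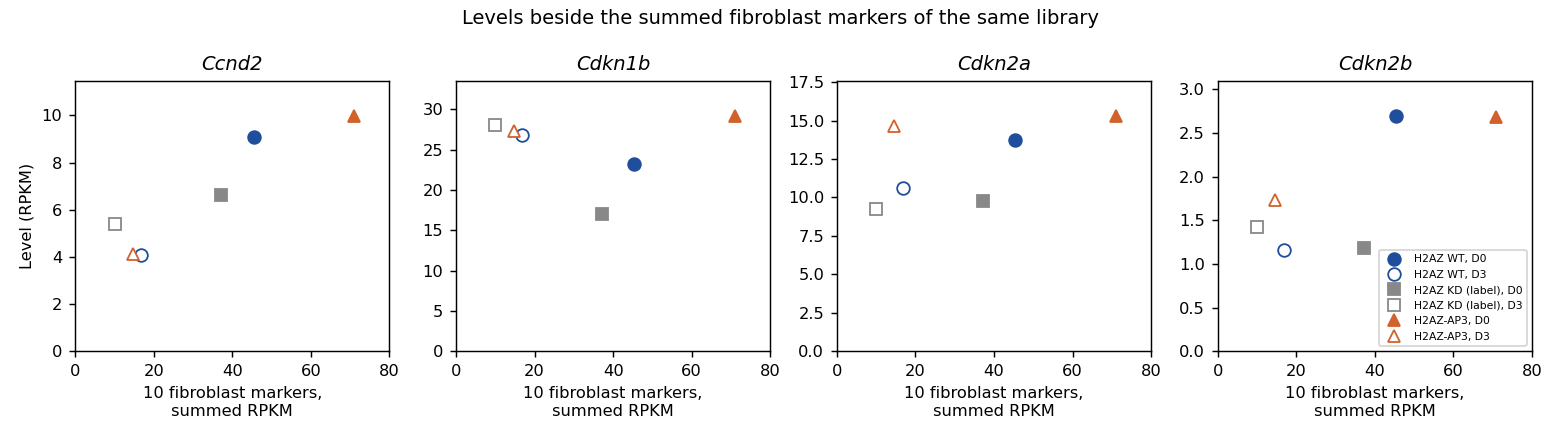
Level in RPKM of Ccnd2, Cdkn1b, Cdkn2a and Cdkn2b (y axis, from 0) against the summed RPKM of 10 fibroblast markers in the same library (x axis), with 1 point per library, filled at D0 and open at D3. At D0 the markers were at 37.2 RPKM in the library labelled H2AZ KD, 45.4 RPKM in H2AZ WT and 70.9 RPKM in H2AZ-AP3, the same order as Ccnd2, Cdkn1b and Cdkn2a. At D3 Ccnd2 and Cdkn1b were highest in the library labelled H2AZ KD, where the markers were lowest.

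Cultured fibroblasts express D cyclins and CDK inhibitors, so the fibroblast markers are given beside them. At D0 the order of the summed markers, with H2AZ-AP3 highest and the library labelled H2AZ KD lowest, was also the order of Ccnd2, Cdkn1b and Cdkn2a, and the library labelled H2AZ KD was lowest for Cdkn2b too. Ccnd1 had the reverse order, at 33.6 RPKM in the library labelled H2AZ KD, 31.8 RPKM in H2AZ WT and 27.9 RPKM in H2AZ-AP3, and Ccnd3 was highest in H2AZ-AP3 but slightly higher in the library labelled H2AZ KD than in H2AZ WT. From H2AZ WT to H2AZ-AP3 at D0, 5 of the 10 markers were higher past 1.5-fold and 1 lower, against 13.9% of rows with at least 1 RPKM. From D0 to D3, 9 of 10 were lower in H2AZ WT, 9 in the line labelled H2AZ KD and 8 in H2AZ-AP3, with Thy1 higher in each. Of rows with at least 1 RPKM, 10.6%, 9.86% and 13.1% were lower in the same order. Thy1 made up much of the D3 sums, at 9.19 RPKM in H2AZ WT, 5.48 RPKM in the library labelled H2AZ KD and 3.56 RPKM in H2AZ-AP3, and the other 9 markers summed to 7.56, 4.56 and 11.1 RPKM in the same order. At D3, 4 of the 10 markers were higher and 1 lower (Thy1) in H2AZ-AP3 than in H2AZ WT, and 6 were lower and 0 higher in the library labelled H2AZ KD. The D0 order did not hold for each gene at D3. Ccnd2 (5.40 RPKM) and Cdkn1b (28.0 RPKM) were then highest in the library labelled H2AZ KD, where the markers were lowest. Cdkn2a had the order of the other 9 markers at D3. From D0 to D3 Cdkn1b was higher in H2AZ WT and the line labelled H2AZ KD, where 9 of 10 markers were lower. Postn was at 0 in 4 libraries and at 0.112 and 0.0169 RPKM in the others, whereas Col1a2 was at 11.8 to 22.5 RPKM at D0. Their part in the levels of these 4 genes, and that of the differentiation markers above in the D0 differences of H2AZ-AP3, was not tested.

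**Figure D3:**
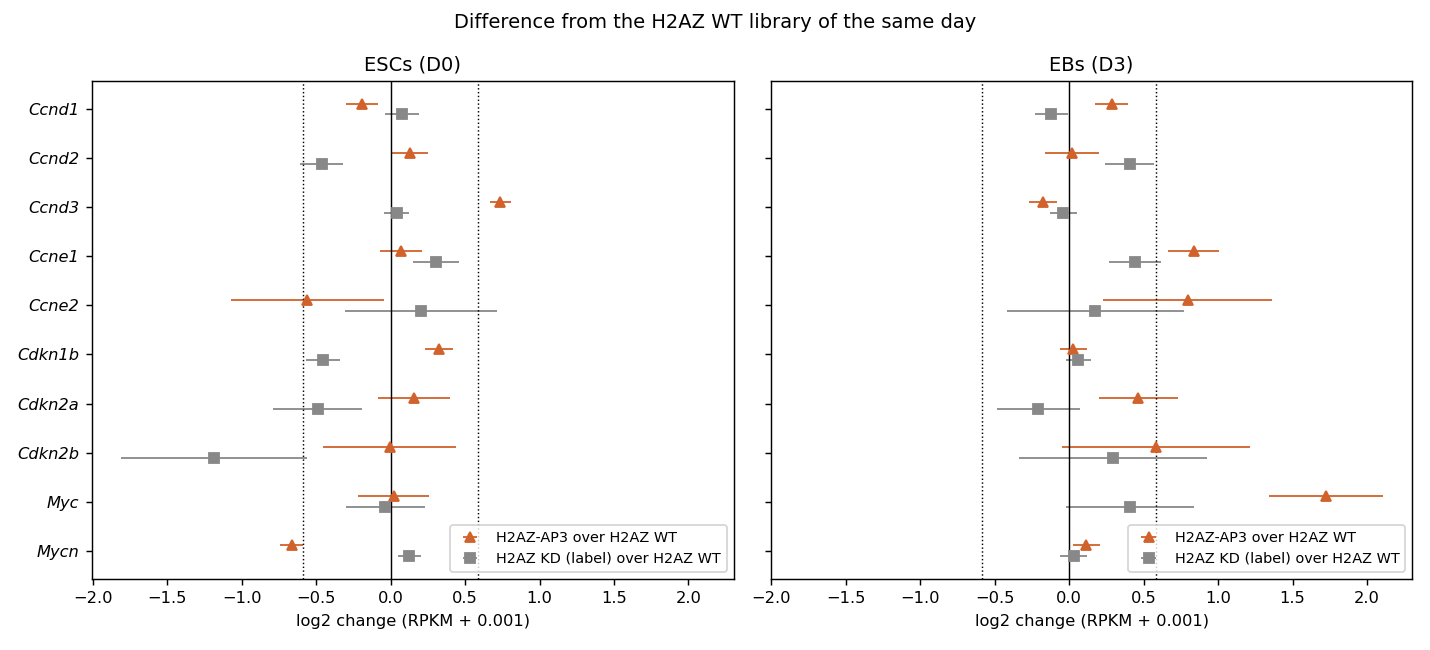
Log2 change in RPKM + 0.001 (x axis) of each gene (y axis) between a line and the H2AZ WT library of the same day, at D0 (left) and D3 (right); bars are 95% intervals from counting error alone and dotted lines mark 1.5-fold. Myc at D3 stands farthest from 0, at 1.72 in H2AZ-AP3.

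Between H2AZ-AP3 and H2AZ WT, 2 of the 10 genes passed 1.5-fold at D0, Ccnd3 higher and Mycn lower, against 25.0% of all rows and 13.9% of the rows with at least 1 RPKM in either library. At D3, 3 of the 10 passed, Ccne1, Ccne2 and Myc, all higher, against 22.1% of all rows and 10.2% of rows with at least 1 RPKM in either direction, and 4.20% of the latter that were higher. The median log2 change of the 10 genes was 0.04 at D0 and 0.37 at D3, and 9 of 10 were above 0 at D3 (7 of 10 with libraries scaled to equal RPKM sums), where the median over rows with at least 1 RPKM was -0.01. Between the library labelled H2AZ KD and H2AZ WT, 1 of 10 passed at D0 (Cdkn2b), against 19.7% of all rows and 8.02% of rows with at least 1 RPKM. At D3, 0 of 10 passed, against 20.7% and 8.59%. Both lines were compared with the same H2AZ WT library at each day, so their values are not independent. A line difference shared by both days was tested with limma on log2(RPKM + 1), with line and day as terms. At an adjusted p under 0.05 limma called 0 of the 10 genes and 0.00% of 11842 rows for either line against H2AZ WT, where 668 rows for H2AZ-AP3 and 300 rows for the line labelled H2AZ KD, and 0 of the 10 genes, had an unadjusted p under 0.05. The smallest unadjusted p was that of Myc in H2AZ-AP3 (log2 0.66, SE 0.29, p 0.0546, limma adjusted p 0.873). All 10 genes were above 1 RPKM in every library, so the shares among rows with at least 1 RPKM are the closer background, and counts of 0 to 3 of 10 are few to set against them.

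**Figure D4:**
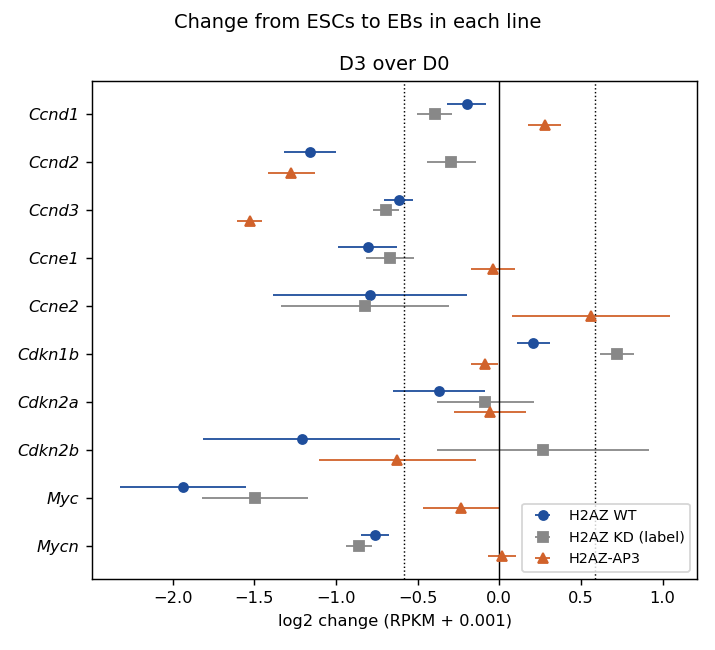
Log2 change in RPKM + 0.001 from D0 to D3 (x axis) of each gene (y axis) in the 3 lines; bars are 95% intervals from counting error alone and dotted lines mark 1.5-fold. Myc, Mycn and Ccne1 lie left of the lower 1.5-fold line in H2AZ WT and in the line labelled H2AZ KD, and near 0 in H2AZ-AP3.

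From D0 to D3, 7 of the 10 genes were lower past 1.5-fold in H2AZ WT and 0 higher, against 30.7% of all rows and 23.0% of rows with at least 1 RPKM in either direction. Among rows with at least 1 RPKM, 10.6% were lower. In the line labelled H2AZ KD, 5 were lower and 1 was higher, against 30.2% and 22.3%, with 9.86% lower. In H2AZ-AP3, 3 were lower and 0 higher, against 31.0% and 24.3%, with 13.1% lower. Ccnd3 was lower in each line. Ccne1, Ccne2, Myc and Mycn were lower past 1.5-fold in H2AZ WT and in the line labelled H2AZ KD, and did not pass it in H2AZ-AP3. H2AZ-AP3 was also the line with the fewest early differentiation markers higher at D3 than at D0. These were 5 of 10, against 9 in H2AZ WT and 8 in the line labelled H2AZ KD. Between H2AZ-AP3 and H2AZ WT at D3, 1 of the 10 was higher past 1.5-fold (T), 1 lower (Mixl1) and 8 neither. Gata4 was already at 12.1 RPKM in H2AZ-AP3 at D0, and at D3 at 13.3 RPKM against 13.7 RPKM in H2AZ WT. The part of these markers in the day changes was not tested. Over the 3 lines, each with its own D0 and D3 library, the day change was tested with limma on log2(RPKM + 1) with the line as a block. The lines are different genotypes and not replicates of one, so this asks for a change they share. Of the 10 genes, 3 were called lower at D3 by limma at an adjusted p under 0.05, against 5.26% of the 11842 rows with a mean of at least 1 RPKM that were called lower and 10.5% called in either direction. They were Ccnd3 (log2 -0.93, SE 0.19, limma adjusted p 0.0225), Ccnd2 (-0.78, SE 0.18, adjusted p 0.0369) and Myc (-0.95, SE 0.23, adjusted p 0.0441), each lower in 3 of 3 lines. In H2AZ-AP3 the change of Myc was small, at -0.23 (counting SE 0.12, or 0.15 with the earlier depth estimator). Myc was not called without the block (limma adjusted p 0.0636) or without the line labelled H2AZ KD (adjusted p 0.113). Ccne1 (log2 -0.49, limma adjusted p 0.101), Mycn (-0.52, adjusted p 0.110) and Ccne2 (-0.29, adjusted p 0.473) did not pass. Over the other 2 lines, without H2AZ-AP3, their log2 changes were -0.72, -0.79 and -0.67. That fit called 1991 of the 11842 rows. Ccne1, Mycn and Ccne2 were named above for being lower in those 2 lines, so the fit gives them no separate support. Without the H2AZ WT line only Ccnd3 passed (adjusted p 0.0456). That these day changes differ between lines was not tested. The difference between the log2 day changes of H2AZ-AP3 and H2AZ WT was 1.70 for Myc, which 187 of 12702 rows (1.47%) matched or passed, 1.35 for Ccne2 (2.20% of rows), 0.78 for Mycn (6.09%), 0.77 for Ccne1 (6.29%) and -0.91 for Ccnd3 (6.07% as low or lower). Between the line labelled H2AZ KD and H2AZ WT it was 1.48 for Cdkn2b, which 175 of the 12702 rows (1.38%) matched or passed, and 0.87 for Ccnd2 (4.06%), and these include D0 differences of -1.18 and -0.46. For Mycn, Ccnd3 and Ccne2 the differences of H2AZ-AP3 include its D0 difference given above, whereas Myc and Ccne1 were within 0.07 in log2 of H2AZ WT at D0.

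Among the genes around them in the pathway, the partner kinases Cdk2, Cdk4 and Cdk6, the CDK-activating kinase Cdk7 and the phosphatase Cdc25a passed 1.5-fold in 0 of the 7 comparisons. Of rows with at least 1 RPKM, 13.9% (D0) and 10.2% (D3) passed between H2AZ-AP3 and H2AZ WT. For the library labelled H2AZ KD these shares were 8.02% and 8.59%, and with the day 22.3% to 24.3%. A list of 5 genes is short to set against them. Cdk4 was at 177, 181 and 202 RPKM at D0 and 227, 232 and 300.0 RPKM at D3 in H2AZ WT, the line labelled H2AZ KD and H2AZ-AP3, and its log2 difference between H2AZ-AP3 and H2AZ WT at D3 was 0.40. Of 6 genes for Cdk1 and the cyclins of later phases, only Ccna1 passed in any comparison, lower in H2AZ-AP3 than in H2AZ WT at D3. It was at 0.537 against 0.974 RPKM there and under 1 RPKM in all 6 libraries, so it is not among the rows with at least 1 RPKM. Of 13 RB and E2F family genes, E2f3 was lower in H2AZ-AP3 than in H2AZ WT at D0, and E2f8 and Tfdp1 were higher at D3. In the library labelled H2AZ KD, E2f3 was higher and Rbl2 lower than in H2AZ WT at D0, and E2f8 was higher at D3. With the day, 3 of the 13 were lower in H2AZ WT and 3 in the line labelled H2AZ KD, with 0 higher, and in H2AZ-AP3 2 were lower and 1 higher. Of rows with at least 1 RPKM, 10.6%, 9.86% and 13.1% were lower in that order, and 23.0%, 22.3% and 24.3% passed either way. A list of 13 genes is short to set against these shares. E2f8, an atypical E2F that represses transcription, was at 6.33 RPKM in H2AZ WT, 9.66 RPKM in the library labelled H2AZ KD and 11.0 RPKM in H2AZ-AP3 at D3. Of 15 E2F target genes, a list that holds Ccne1 and Ccne2, 3 were higher in H2AZ-AP3 at D3, those 2 and Rrm2, and 12 did not pass. Rrm2 is thus 1 of the 13 that are not among the 10 genes, against the 4.20% of rows with at least 1 RPKM that were higher.

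The counts that follow stand against 13.9% (D0) and 10.2% (D3) of rows with at least 1 RPKM past 1.5-fold between H2AZ-AP3 and H2AZ WT, and against 8.02% and 8.59% for the library labelled H2AZ KD, and lists of 4 to 13 genes are short to set against them. Of 13 Myc target genes, 0 passed 1.5-fold between H2AZ-AP3 and H2AZ WT at either day, with a median log2 change of 0.0031 at D0 and 0.08 at D3. Of 9 Myc partners and antagonists, 0 passed in these comparisons either. Mycl1, another Myc family gene, was higher at D3 than at D0 in each line, from 3.55 to 8.10 RPKM in H2AZ WT, from 4.23 to 7.13 RPKM in the line labelled H2AZ KD and from 2.86 to 5.51 RPKM in H2AZ-AP3. Of 4 other CDK inhibitors, 0 passed between lines. From D0 to D3, 10.6% of rows with at least 1 RPKM were lower in H2AZ WT, 9.86% in the line labelled H2AZ KD and 13.1% in H2AZ-AP3. Of the 4 inhibitors, 2 were lower at D3 than at D0 in each line. Cdkn1a, which encodes p21, was among them in each, at 41.7, 35.2 and 57.9 RPKM at D0 and 19.1, 17.7 and 22.9 RPKM at D3. Of 9 genes for the turnover of cyclin E, p27 and Myc proteins, 0 passed between lines. The regulators of the Cdkn2a locus Bmi1, Cbx7 and Ezh2, and the gene Mtap beside it, did not pass between lines.

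The genes with the most similar profiles were found by the distance between centred log2(RPKM + 1) values over the 6 libraries, among 8217 rows whose mean was 5 RPKM or more. Among the nearest to Ccne1 were Mospd3 and E2f8, and the nearest to Ccne2 were Slbp, Mvk and D10Wsu102e. Slbp, which encodes a histone mRNA binding protein, was at 63.1, 67.2 and 52.5 RPKM at D0 and 38.7, 44.4 and 62.9 RPKM at D3. The nearest to Mycn were Srf, Nkrf and Cdkn1c, and Srf was at 16.9, 20.7 and 11.1 RPKM at D0 and 11.0, 10.2 and 10.9 RPKM at D3. The nearest to Ccnd3 were Sbno2, Fah and Stat3. Stat3, which carries the LIF signal in ESCs, was at 19.96, 20.9 and 26.2 RPKM at D0 and 12.5, 11.7 and 11.1 RPKM at D3. The nearest to Ccnd1 were Bcl2l11, Umps and Ddx59, to Ccnd2 Trim23, Ubr3 and Ncoa3, to Cdkn1b Rpl13, BC004004 and Ypel3, and to Cdkn2a Tes, Zswim7 and Atp6v0e2. Myc has a mean of 4.83 RPKM, below that minimum, and was added after its values had been seen. Its nearest were Gt(ROSA)26Sor, Gadd45a and Hmga2, at distances of 0.52 to 0.61 where the nearest of the other genes lay at 0.07 to 0.29. Gt(ROSA)26Sor, whose locus is widely used for transgenes, was at 17.7, 15.9 and 16.0 RPKM at D0 and 5.59, 5.43 and 9.78 RPKM at D3.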

How the data were processed

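Poly(A) RNA libraries were sequenced by the authors, aligned to mm9 with TopHat and Bowtie 0.12.7 and quantified with Cufflinks 1.3.0, per the submitters' processing notes. The deposited values are RPKM per gene. The 6 deposited log2 columns, the ratios of 2 libraries by the authors, were not used. From the RPKM, log2((RPKM + 0.001)/(RPKM + 0.001)) was computed for 7 comparisons (Python 3.11.15, numpy 2.4.6, pandas 2.3.3), tested on simulated data, and counted past 1.5-fold. The day over the 3 lines was fitted with limma 3.58.1 (R 4.3.3, Benjamini-Hochberg adjustment, trend) on log2(RPKM + 1), with the line as block, and the lines over both days with day as a term, for rows with a mean of at least 1 RPKM, also tested on simulated data. The depth of a library was estimated from the RPKM of 1 read on genes with 1 transcript over 1.5 kb, and reads from the RPKM, the median transcript length (GENCODE on mm9) and that depth. The depth estimator was changed after the values of the first had been seen. The 2 differ most for H2AZ-AP3 at D0, where neither is shown to be right, and both are reported. Named genes were the 10 genes, genes of 16 lists with the largest changes, and the 3 nearest profiles of each gene with a mean of at least 5 RPKM, of which 1 is not reported here. Other genes of these lists are named where they illustrate a count. The genes and lists were chosen with earlier results of these data known. Nanog was not analysed here.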

Additional observations from a re-analysis of the deposited data

Results flagged for a closer look

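Some genes changed in opposite directions in the same contrast, at D0 and D3 or in 2 lines, with 1 library on each side, and the difference was not tested. They were picked out when both changes exceeded 2 counting SE and at least 1 passed 1.5-fold, a rule set after the changes had been seen. Between H2AZ-AP3 and H2AZ WT, Ccnd3 had a log2 change of 0.74 at D0 and -0.18 at D3, Ccne2 of -0.56 and 0.80, and Mycn of -0.66 and 0.11. From D0 to D3, Ccne2 had a log2 change of -0.79 in H2AZ WT and -0.82 in the line labelled H2AZ KD, and 0.56 in H2AZ-AP3. Cdkn1b had one of 0.72 in the line labelled H2AZ KD and -0.090 in H2AZ-AP3. The choice depends on the depth taken for H2AZ-AP3 at D0: these are 6 pairs of changes with the estimate of 30.8 M reads, and 2 pairs, those of Ccnd3 and Mycn, with the earlier estimator's 13.2 M.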

How the results depend on the processing

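The day over the 3 lines, with each line as a pair, and the lines over both days were tested in fits chosen after seeing the data. With the line as block, limma called 1243 rows and 3 of the 10 genes. Without the block it called 1371 and 2, and leaving out 1 line in turn 366 to 1991 and 1 to 6, the fewest without H2AZ WT and the most without H2AZ-AP3. Between lines limma called 0 rows with and without the day term. The order of the comparisons here is H2AZ-AP3 against H2AZ WT at D0 and D3, the libraries labelled H2AZ KD against H2AZ WT at D0 and D3, and D3 against D0 in H2AZ WT, the line labelled H2AZ KD and H2AZ-AP3. The rows past 1.5-fold numbered 5412, 4772, 4255, 4473, 6633, 6543 and 6711. With a pseudocount of 1 they numbered 1035, 674, 467, 516, 2104, 1989 and 2232, with a minimum of 1 RPKM 1685, 1219, 968, 1027, 2810, 2713 and 2964, and past 2-fold 3291, 3015, 2698, 2839, 4290, 4195 and 4265. The share of higher rows in the first moved from 44.2% to 62.3% with the pseudocount of 1 and to 56.2% with the minimum. Past 2-fold, the count among the 10 genes fell to 0 in the first comparison, 1 in the second, 3 in H2AZ WT with the day, 1 in the line labelled H2AZ KD with the day and 2 in H2AZ-AP3 with the day. Of 420 single-gene changes under the alternatives, 403 kept their side of the threshold, 15 fell below it and 2 passed it. Of the 420, 8 changed sign, all of them uncounted changes of at most 0.07 in log2 and all under a scaling alternative, among them, with equal RPKM sums, Ccne1 and Myc at D0 (-0.01 and -0.06) and Ccnd2 and Cdkn1b at D3 (-0.03 and -0.02) between H2AZ-AP3 and H2AZ WT. Of the 15, 14 were at 2-fold, and the other was Cdkn2b with the day in H2AZ-AP3 (-0.43 with a pseudocount of 1). The 2 that passed were Cdkn2b in H2AZ-AP3 at D3 (0.59, median centred) and Ccne2 in H2AZ-AP3 at D0 (-0.64, libraries scaled to equal RPKM sums, chosen after seeing the data). All 22 counted changes exceeded their 95% counting interval under both depth estimators and with the longest transcript. Of all 70 changes, 47 did so, 48 with the longest transcript and 42 with the earlier depth estimator. Differences between cultures could not be measured.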
